A study of Bos taurus with 24 samples.

Results

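miR-221 and miR-222 are a pair of microRNAs (miRNAs) that were measured by small RNA sequencing in the mammary gland of dairy cows before and after a feed restriction. They were taken by name as the rows bta-miR-221 and bta-miR-222 of both deposited tables, and are 2 of the 796 miRNAs listed there. No other row begins with either name. Biopsies of lactating Holstein (HOLS) and Montbéliarde (MONT) cows were taken on day 0, while each cow ate a mixed ration without limit (CONT), and on day 6 of a feed restriction (REST), which the labels put at 60% of the net energy of lactation and the study's methods at another level. The 4 groups are thus HOLS CONT, HOLS REST, MONT CONT and MONT REST, with 5 HOLS and 6 MONT cows, each giving 1 CONT and 1 REST library, 22 libraries in all. The labels list 1 further HOLS cow, which was not analysed here. All cows were restricted after the control biopsy and none was kept on the full ration, so the effect of the restriction and of the 6 days in between cannot be told apart. The biopsies hold all cell types of the gland, so a change in the share of a cell type and a change per cell cannot be told apart either.

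miRNAs are short RNAs that pair with messenger RNAs through the bases near their 5′ end, called the seed, and lower the output of those messenger RNAs. miR-221 and miR-222 are processed from one primary transcript and carry the same seed, so they are expected to share most of their targets. They are known for targeting the cell cycle inhibitor p27 (CDKN1B) and the receptor KIT, for a role in endothelial cells and blood vessel growth, and in breast tissue for higher levels in basal and mesenchymal cells than in luminal epithelium. In the RefSeq annotation of the assembly ARS-UCD2.0, MIR222 and MIR221 follow each other on chromosome X with no gene between them, and the neighbours on either side are the long non-coding RNA genes LOC132344329 and LOC132344330. The reads were placed by the authors on another assembly, so no coordinates are given.

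Between 6087865 and 18913916 miRNA counts were summed in each library. One cow, MONT 9615, stood apart. Across the 388 miRNAs tested in all libraries, its change from CONT to REST correlated with the mean change of the other cows at r = -0.54, while this r lay between 0.44 and 0.71 in the other 10 cows. The libraries labelled MONT 9615 held 9137882 and 7817027 counts, within the range of the others. Its change thus ran against the order of its period labels. Whether the labels of its CONT and REST libraries were exchanged was not tested, and its values are given as labelled. Most tests and main descriptions that include them are given with and without this cow. It was singled out by its change in these same libraries. Leaving it out removes the change that ran against the others, so p-values without it are not independent support.

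miR-221 was the more abundant member in every library. On the scale of normalized counts (read counts divided by a size factor per library, estimated over all 22 libraries together), miR-221 had a mean of 2426 and ranked 92 among the 796 miRNAs, and miR-222 had a mean of 368 and ranked 157. Both were read in every library, with 836 to 8175 raw counts of miR-221 and 142 to 1393 of miR-222. Both therefore passed the filter on low counts in each comparison.

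In HOLS, miR-222 was higher at REST than at CONT in all 5 cows. Its normalized counts at CONT were 254, 249, 201, 216 and 254 in cows 1155, 1165, 2182, 8200 and 9195, a mean of 235 ± 24.7 (SD, n = 5). At REST they were 364, 320, 330, 318 and 313 in the same order, a mean of 329 ± 20.5 (SD, n = 5). The highest CONT library lay below the lowest REST library, so the periods did not overlap, which held, in either direction, for 7.22% of the 374 miRNAs tested in HOLS. The fitted log2 fold change of REST against CONT was 0.48 (SE 0.12), with an adjusted p of 0.0540 in edgeR's quasi-likelihood test, just above the threshold of 0.05. With the cow as a block, which compares the libraries of one animal with each other, the log2 fold change was again 0.48 (SE 0.12) and the adjusted p was 0.0216. DESeq2 without the block gave 0.47 with an adjusted p of 0.00283. Other settings of the edgeR test did not pass. The adjusted p was 0.240 when scaled by library totals alone, 0.171 without the filter on low counts and 0.602 in 1 fit of both breeds. With any one of the 5 cows left out it lay between 0.104 and 0.212. Of all miRNAs tested in HOLS, 2.41% passed the threshold in the fit without the block and 16.3% with it.

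miR-221 moved less in HOLS. Its normalized counts at CONT were 1678, 1726, 1570, 1543 and 1593 in the same 5 cows, a mean of 1622 ± 77.0 (SD, n = 5). At REST they were 1795, 1952, 2025, 1707 and 2100, a mean of 1916 ± 162 (SD, n = 5). Each cow had the higher value at REST, but the lowest REST library (cow 8200) lay below the highest CONT library (cow 1165). The fitted log2 fold change was 0.23 (SE 0.10), with an adjusted p of 0.207 without the block and 0.103 with it. When the counts were scaled by library totals alone, the median over all miRNAs tested in HOLS shifted to -0.15 on the log2 scale. The log2 fold changes of miR-221 and miR-222 were then 0.06 and 0.30, and miR-221 was higher at REST in 3 cows and lower in 2.

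**Figure D1:**
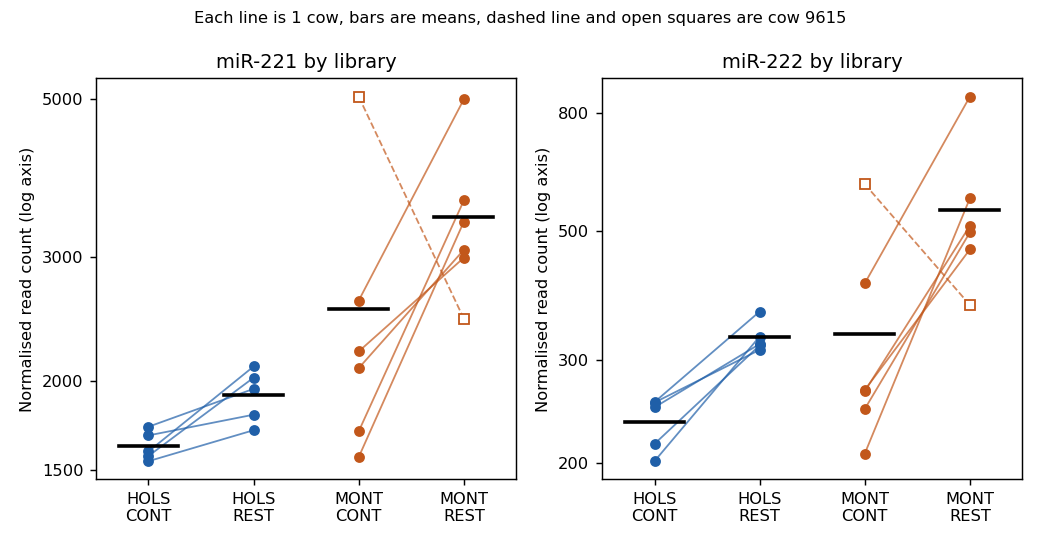
Normalized read counts (log axis) of miR-221 (left) and miR-222 (right) in the 22 libraries by breed and period, with 1 line per cow, black bars for the group means, and a dashed line with open squares for cow MONT 9615. Both miRNAs were higher at REST in 10 of 11 cows, and cow 9615 ran the other way with miR-221 at 5045 in CONT and 2452 in REST.

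In MONT both members were higher at REST in 5 of 6 cows and lower in cow 9615. The normalized counts of miR-221 at CONT had a lowest value of 1564, a median of 2147 and a highest of 5045, the last in cow 9615, with a mean of 2534 ± 1285 (SD, n = 6). At REST the lowest was 2452, again cow 9615, the median 3215 and the highest 5003 in cow 1652, with a mean of 3412 ± 870 (SD, n = 6). The highest MONT CONT value and the lowest MONT REST value of miR-221 thus came from the same animal. Without this cow the means were 2032 ± 414 at CONT and 3604 ± 819 at REST (SD, n = 5), and the highest CONT library at 2601 lay below the lowest REST library at 2990. Such a separation of the periods in these 5 cows, in either direction, was found for 9.5% of the miRNAs tested.

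For miR-222, cow 9615 again gave the highest CONT and the lowest REST value of MONT. At MONT CONT its lowest normalized count was 207, the median 266 and the highest 603 in cow 9615, with a mean of 333 ± 149 (SD, n = 6). At MONT REST the lowest was 374 in cow 9615, the median 505 and the highest 852 in cow 1652, with a mean of 545 ± 164 (SD, n = 6). Without cow 9615 the means were 279 ± 75.6 and 580 ± 157 (SD, n = 5).

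The fitted change in MONT did not pass the threshold with all 6 cows. The log2 fold change was 0.44 (SE 0.26, adjusted p = 0.437) for miR-221 and 0.72 (SE 0.26, adjusted p = 0.314) for miR-222. In this fit 0% of the 349 miRNAs tested passed, with 47 at an unadjusted p of at most 0.05 in edgeR and none passing in DESeq2. Without cow 9615 the log2 fold change was 0.80 (SE 0.20, adjusted p = 0.0338) for miR-221 and 1.03 (SE 0.24, adjusted p = 0.0241) for miR-222, in a fit in which 12.8% of miRNAs passed. With the cow as a block, all 6 cows gave 0.51 for miR-221 (adjusted p = 0.305) and 0.76 for miR-222 (adjusted p = 0.292), and 0% passed. With the cow as a block and without cow 9615, a fit chosen after seeing the data, the values were 0.79 (adjusted p = 0.00188) and 1.02 (adjusted p = 0.00119), and 39.1% of all miRNAs passed. The call in MONT therefore rests on whether this one cow is in the fit.

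Over both breeds, miR-222 rose with the restriction. Its log2 fold change as the mean of both breeds was 0.55 (SE 0.16), with an adjusted p of 0.0402, and 8.25% of all miRNAs passed in that fit, 8 higher and 24 lower at REST. Scaled by library totals alone, 0 were higher and 27 lower, and miR-222 had a log2 fold change of 0.52 (adjusted p = 0.0738). miR-221 had a log2 fold change of 0.29 (SE 0.16) and did not pass (adjusted p = 0.230). Blocking by cow gave an adjusted p of 0.0326 for miR-222 and 0.136 for miR-221, and 11.1% passed. The call of miR-222 was lost when any one of the 10 other cows was left out, with adjusted p from 0.0556 to 0.0976, and when cow 9615 was left out the adjusted p was 0.000502. Without cow 9615 miR-221 also passed, with a log2 fold change of 0.52 (adjusted p = 0.00298) against 0.76 for miR-222, and 32.2% of all miRNAs passed. With the block and without cow 9615 the adjusted p was 0.000162 for miR-221 and 2.01e-05 for miR-222, and 47.4% passed.

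**Figure D2:**
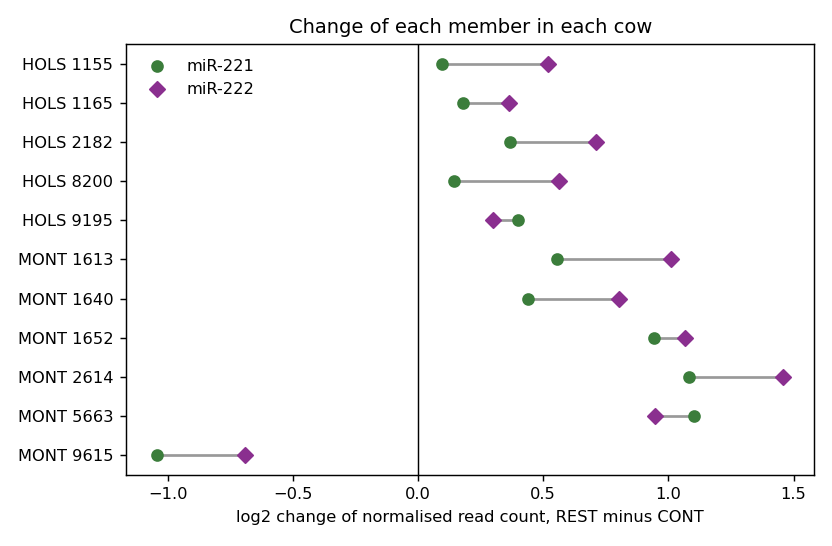
Change of normalized read counts from CONT to REST (log2) in each of the 11 cows, with circles for miR-221 and diamonds for miR-222. Values lie above 0 in 10 cows for both miRNAs and below 0 in MONT 9615, and the diamond lies to the right of the circle in 9 of 11 cows.

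Cow by cow, both members moved in the same direction in 11 of 11 animals on normalized counts. Scaled by library totals alone, this did not hold in HOLS 1155 and 1165. There the log2 change was -0.26 and -0.16 for miR-221 and 0.16 and 0.02 for miR-222. In HOLS the log2 change of normalized counts ranged from 0.10 (cow 1155) to 0.40 (cow 9195) for miR-221 and from 0.30 (cow 9195) to 0.71 (cow 2182) for miR-222. In MONT without cow 9615 it ranged from 0.44 (cow 1640) to 1.10 (cow 5663) for miR-221 and from 0.80 (cow 1640) to 1.46 (cow 2614) for miR-222. The ranges of HOLS and of these 5 MONT cows did not overlap for either member, which held for 5.41% of the 388 miRNAs tested. In cow 9615 the log2 change was -1.04 for miR-221 and -0.69 for miR-222.

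The changes of both members went together over the 11 cows, but within the breeds this was not detectable without cow 9615. Over the 11 cows the log2 changes correlated at Pearson r = 0.934 (permutation p = 0.00023) and Spearman rho = 0.827 (permutation p = 0.00277). The changes of both members carry the size factors of the same libraries, which are shared between the 2 measures. Without the 2 cows farthest from the median change of miR-221 (MONT 5663 and 9615), r was 0.874 (exact permutation p = 0.00164), and without cow 9615 alone it was 0.822. Within MONT r was 0.960 (exact permutation p = 0.0181, n = 6) and rho 0.657 (exact permutation p = 0.175). With the mean of each breed removed and values permuted within breeds, r was 0.930 (permutation p = 0.0224) with all cows and 0.452 (permutation p = 0.313) without cow 9615, so within the breeds the relation rested on this cow. In HOLS, for which no correlation over 5 cows is given, cow 9195 had the largest change of miR-221 and the smallest of miR-222.

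The difference between the breeds in the response to the restriction was tested as an interaction of breed and period. It was 0.23 (SE 0.31) for miR-221 and 0.27 (SE 0.32) for miR-222 on the log2 scale, in the direction of the larger rise in MONT, with an adjusted p of 0.991 for both. Here 0% of the 388 miRNAs passed in edgeR, with 3 at an unadjusted p of at most 0.05, and none passed in DESeq2. Without cow 9615 the interaction was 0.64 (adjusted p = 0.391) and 0.62 (adjusted p = 0.481). Over all single cows left out it ranged from 0.09 (without HOLS 1155) to 0.64 for miR-221 and from 0.15 (without MONT 2614) to 0.62 for miR-222. With the cow as a block and all cows the interaction was 0.34 for both members (adjusted p = 0.985), and 0% passed. With the cow as a block and without cow 9615 it was 0.63 (SE 0.16, adjusted p = 0.0389) for miR-221 and 0.61 (SE 0.17, adjusted p = 0.0431) for miR-222, and 5.93% of all miRNAs passed.

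The level itself was higher in MONT than in HOLS at REST. Breed and the depth and quality of the libraries cannot be told apart in this comparison. The log2 difference of MONT against HOLS at REST was 0.85 (SE 0.23, adjusted p = 0.0182) for miR-221 and 0.75 (SE 0.23, adjusted p = 0.0349) for miR-222, and 13.7% of miRNAs passed, 34 higher and 19 lower in MONT. Scaled by library totals alone, the median over all miRNAs shifted to 0.16, 43 were higher and 12 lower, and the log2 differences were 0.996 for miR-221 and 0.90 for miR-222. At CONT the log2 difference was 0.62 (SE 0.22, adjusted p = 0.117) for miR-221 and 0.48 (SE 0.23, adjusted p = 0.214) for miR-222, where 7.47% passed, 12 higher and 17 lower in MONT, against 0 and 3 with library totals. Every MONT REST library, from 2452 upwards, lay above every HOLS REST library, of which the highest was 2100, for miR-221. The same held for miR-222, with the lowest MONT REST library at 374 and the highest HOLS REST library at 364. The breeds did not overlap at REST, in either direction, for 9.02% of the miRNAs tested. At CONT the breeds overlapped for both members. Leaving out cow 9615 moved the log2 difference at CONT to 0.32 and 0.25 and at REST to 0.96 and 0.87, for miR-221 and miR-222. The adjusted p was then 0.284 and 0.562 at CONT and 0.000493 and 0.00236 at REST, where 101 of 388 miRNAs passed. The calls at REST were lost without any one of HOLS cows 1155, 1165 and 8200 or MONT cow 1652 for both members, and for miR-222 also without HOLS 2182, HOLS 9195 or MONT 2614, with adjusted p from 0.0516 to 0.113.

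In order of mean normalized count, miR-221 ran from HOLS CONT (1622) over HOLS REST (1916) and MONT CONT (2534) to MONT REST (3412). miR-222 ran in the order HOLS CONT (235), HOLS REST (329), MONT CONT (333) and MONT REST (545). For both members, HOLS REST and MONT CONT, the neighbours in the middle of this order, overlapped in their libraries. The other neighbours in this order, the periods of one breed, overlapped as well except for miR-222 in HOLS. Without cow 9615 the mean of MONT CONT was 2032 for miR-221, still above HOLS REST, and 279 for miR-222, below HOLS REST, so the middle groups changed places for miR-222.

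**Figure D3:**
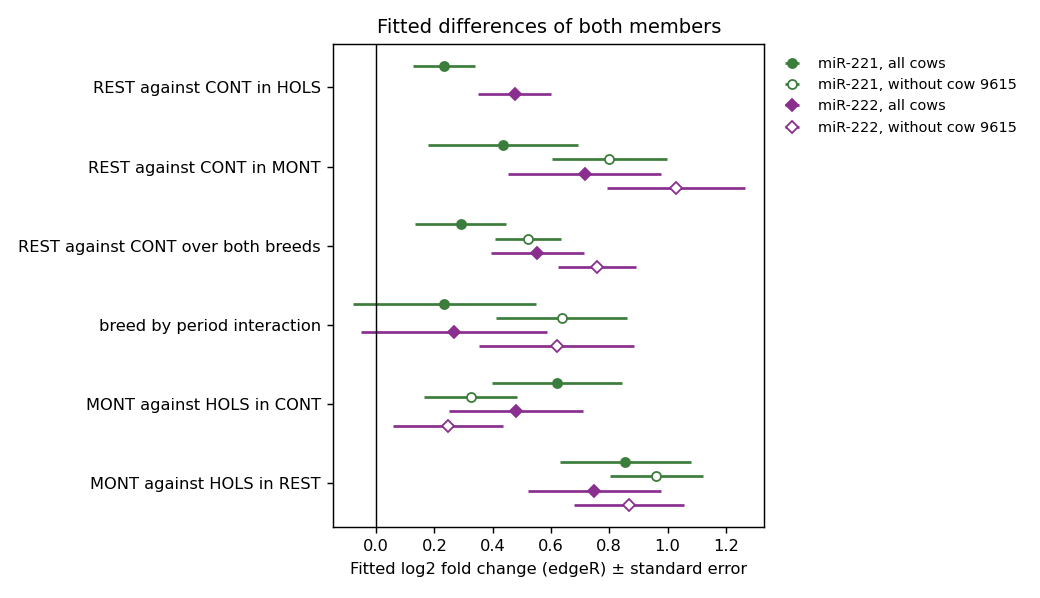
Fitted log2 fold changes of miR-221 (circles) and miR-222 (diamonds) with bars of 1 standard error for 6 comparisons, filled with all cows and open without cow MONT 9615. Values for REST against CONT in MONT and over both breeds and for the interaction lie further to the right without this cow, HOLS alone has no such value, and those for MONT against HOLS in CONT lie nearer to 0.

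As both members come from one transcript, their ratio within a library was followed as well, which no scaling of the library can change. The ratio of miR-221 to miR-222 raw counts had means of 6.95 at CONT and 5.85 at REST in HOLS, and of 7.59 at CONT and 6.32 at REST in MONT. In HOLS CONT the log2 ratio ran from 2.65 to 2.96 and in HOLS REST from 2.30 to 2.75. In MONT CONT it had a lowest value of 2.56, a median of 3.04 and a highest of 3.08, and in MONT REST these were 2.55, 2.67 and 2.72. The periods overlapped in both breeds, and the 6 MONT REST libraries lay close together.

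The ratio fell with the restriction over the 11 cows. The log2 ratio at REST minus that at CONT was -0.25 ± 0.21 (SD, n = 11) and was below 0 in 9 of 11 cows (two-sided exact paired permutation test, p = 0.00684, adjusted p = 0.0342 over the 5 comparisons made of the ratio). This corresponds to a share of miR-221 among the counts of both members of 87.8% at CONT and 85.8% at REST. The mean change was -0.25 in HOLS (exact permutation p = 0.125, adjusted p = 0.208, n = 5) and -0.25 in MONT (exact permutation p = 0.0938, adjusted p = 0.208, n = 6). The smallest p that this test can give is 0.0625 with 5 cows and 0.0313 with 6 cows, so HOLS alone could not reach the threshold. MONT alone could reach it before the adjustment, but not after it, given the p of the other comparisons.

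The 2 cows with a higher ratio at REST were HOLS 9195 and MONT 5663, with log2 changes of 0.10 and 0.16. In 7 of 11 cows the change of the ratio lay outside the 95% range of its counting error, and neither of these 2 was among them. Cow 9615 went with the majority here, with a change of the log2 ratio of -0.35, although both miRNAs were lower at REST in this cow. Without cow 9615 the mean change was -0.24 over both breeds (exact permutation p = 0.0137, n = 10) and -0.23 in MONT (exact permutation p = 0.188, n = 5). The ratio was not shown to differ between the breeds, with MONT minus HOLS at 0.12 in CONT (exact permutation p = 0.320, adjusted p = 0.320) and 0.12 in REST (exact permutation p = 0.171, adjusted p = 0.214). Leaving out cow 9615 gave 0.085 in CONT (exact permutation p = 0.5) and 0.11 in REST (exact permutation p = 0.262).

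**Figure D4:**
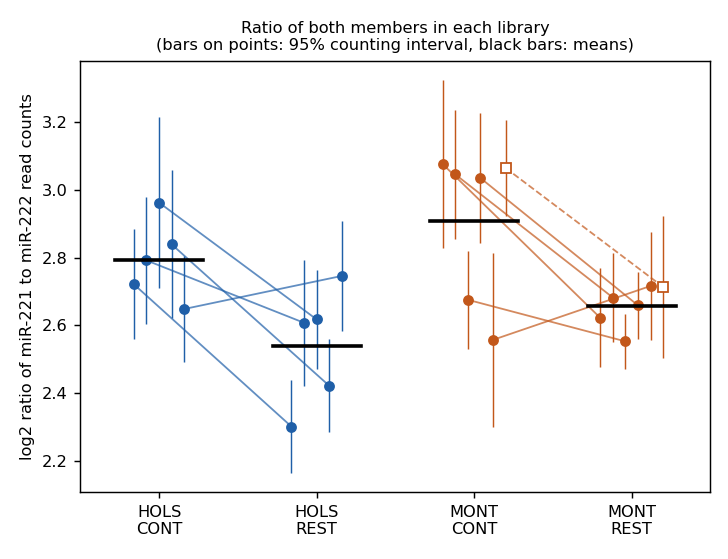
log2 ratio of miR-221 to miR-222 read counts in each library, with 1 line per cow, bars on the points for the 95% counting interval, black bars for the group means, and open squares with a dashed line for MONT 9615. The line falls from CONT to REST in 9 of 11 cows, including MONT 9615, and rises in HOLS 9195 and MONT 5663.

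The change of this ratio was set beside that of 17 other pairs of neighbouring miRNAs that are known to come from one transcript and had enough counts, out of 19 listed. The pair miR-221 and miR-222 had rank 4 by size of the mean change of the log2 ratio among the 18 pairs, and rank 5 without cow 9615, where its change was -0.24 and that of miR-451 and miR-144 was -0.32. Its SD over the 11 cows was 0.21. The ratio of this pair moved one way in 9 of 11 cows. The same count held for miR-181a/miR-181b, miR-25/miR-93, miR-133a/miR-1 and miR-30b-5p/miR-30d. In 10 of 11 cows 2 other pairs moved one way, miR-200b/miR-200a and miR-200c/miR-141. Over the other 17 pairs the median size of the mean change was 0.0507 and the median SD 0.265. The larger mean changes were those of miR-200c and miR-141 (-0.48), miR-133a and miR-1 (-0.31) and miR-200b and miR-200a (-0.28). miR-200c, miR-141, miR-200a and miR-200b belong to the epithelial miR-200 family, and miR-133a and miR-1 are muscle miRNAs. These values are a description, and no test was made between pairs.

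**Figure D5:**
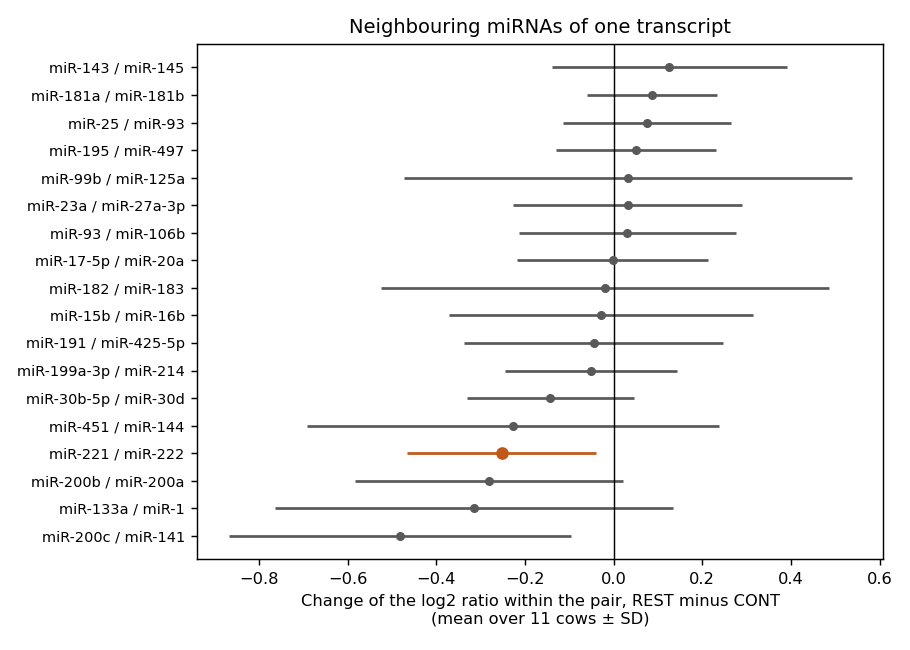
Mean change of the log2 ratio within each of 18 pairs of neighbouring miRNAs from CONT to REST, with bars of 1 SD over the 11 cows. The pair of miR-221 and miR-222 (coloured) lies at -0.25, and 3 pairs lie further from 0.

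The miRNAs whose levels went most closely with each member were found by the correlation of log2 counts scaled to library size over the 22 libraries, after the mean of each group had been subtracted. These points share the scaling of their library and 2 libraries come from each cow. For miR-221 they were miR-181c (r = 0.921), miR-181d (0.913), miR-222 (0.905), miR-708 (0.857) and the predicted chr21_22372_mature (0.83), and for miR-222 they were miR-181c (0.916), miR-199a-5p (0.911), the predicted chr21_21957_mature (0.906), miR-221 (0.905) and miR-181d (0.895). The median r over all miRNAs was near 0 for both. Thus miR-222 had rank 3 for miR-221 and miR-221 had rank 4 for miR-222. Without cow 9615 these ranks were 3 and 6, and for miR-221 miR-708 moved to rank 15 and miR-181d to rank 5. For miR-222, miR-181c then moved to rank 4, miR-199a-5p to rank 5 (r = 0.800) and miR-181d to rank 14. Without this cow the r between both members was 0.784, and that of miR-181c was 0.824 with miR-221 and 0.810 with miR-222.

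Markers of the cell types of the gland were read beside the members, since miR-199a-5p marks stromal cells. The summed normalized counts of the 4 markers of fibroblasts and stroma (miR-199a-3p, miR-199a-5p, miR-199b and miR-214) ranged in HOLS from 9327 to 12082 at CONT and 10714 to 15924 at REST, and in MONT from 8824 to 30175 at CONT and 15192 to 36904 at REST. By cow, the log2 change of this sum ranged from 0.17 to 0.77 in HOLS and from 0.55 to 1.59 in 5 MONT cows. It was -0.99 in cow 9615, so on normalized counts its sign was that of the members in every cow. The sum carries the same size factors as the members. It also holds miR-199a-5p, one of the miRNAs most like miR-222 in these libraries, so this match was partly fixed beforehand. None of the 4 passed the threshold for REST against CONT in HOLS, in MONT or over both breeds, where their median log2 fold changes were 0.29, 0.69 and 0.44 against medians of all miRNAs of 0.02, -0.01 and -0.04. Without cow 9615 all 4 passed in MONT, with a median of 1.12, and over both breeds, with a median of 0.73, in the fits in which 12.8% and 32.2% of all miRNAs passed. At REST 3 of 4 were higher in MONT than in HOLS, with a median log2 difference of 0.99, where 13.7% of all miRNAs passed. In that comparison the epithelial miR-205 and miR-31 were also higher and miR-141 and the endothelial miR-126-3p lower in MONT. Without cow 9615 all 4 stromal markers were higher in MONT at REST, with a median of 1.13, where 101 of 388 miRNAs passed. The epithelial miR-200c and the endothelial miR-126-5p were then also lower, and the leukocyte miR-150 was higher.

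On normalized counts the sum of the 7 leukocyte markers also had the sign of the members in every cow. However, 1 of the 7, miR-223, had a log2 fold change of -0.01 in HOLS and -1.30 in MONT, and none passed. The log2 change of the sum ranged from 0.08 to 0.66 in HOLS and from 0.17 to 1.01 in 5 MONT cows, and was -0.83 in cow 9615. The sum of the 10 epithelial markers listed (of 11) changed by -0.95 to -0.06 in 5 MONT cows and by 0.78 in cow 9615, and in HOLS it was higher in 3 cows and lower in 2. One epithelial marker passed over both breeds, miR-200b with a log2 fold change of -0.65 (adjusted p = 0.00754). The 2 endothelial markers are the arms of miR-126. Their sum was higher at REST in all 5 HOLS cows, with log2 changes from 0.08 to 0.57. In MONT its change ran from -0.49 to 0.08 in 5 cows and was 0.37 in cow 9615. The median log2 fold change of both arms was 0.32 in HOLS and -0.08 in MONT. Neither arm passed in HOLS without the block. The 2 smooth muscle and myoepithelial markers had a median log2 fold change of 0.35 in HOLS and 0.20 in MONT, the 3 red blood cell markers -0.09 and -0.75, and the 2 skeletal muscle markers tested 0.01 and 0.00. Without cow 9615 the medians in MONT were -0.29 for epithelium, -0.19 for endothelium and 0.35 for leukocytes. They were 0.20 for smooth muscle and myoepithelium, -0.98 for red blood cells and 0.14 for skeletal muscle. With the cow as a block, where 16.3% of all miRNAs passed in HOLS, 4 of 7 leukocyte, 2 of 2 smooth muscle and myoepithelial, 1 of 2 endothelial and 1 of 3 red blood cell markers passed as higher at REST, as did 1 of 10 epithelial markers (miR-31), while 3 of 10 (miR-200b, miR-200c and miR-429) were lower. None of the 4 stromal markers passed there. No marker list had a member at 0 in a whole group. The part of these cell types in the changes of miR-221 and miR-222 was not tested.

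As both members are known from blood vessels, a list of 24 other miRNAs linked to angiogenesis was followed, of which 22 were listed and tested. None of the 22 passed the threshold for REST against CONT in HOLS, in MONT or over both breeds in edgeR without the block. Their median log2 fold change was 0.05 in HOLS, 0.05 in MONT and 0.04 over both breeds. Beside these stand 0.23, 0.44 and 0.29 for miR-221 and 0.48, 0.72 and 0.55 for miR-222. Single members of the list differed from its median. In HOLS 13 of the 22 lay above 0, among them miR-155 at 0.55 and miR-126-3p at 0.32. With the cow as a block 4 of 22 passed in HOLS, beside 16.3% of all miRNAs, with miR-100, miR-126-3p and miR-155 higher at REST and miR-18a lower. Over both breeds with the block 3 of 22 passed, beside 11.1% of all miRNAs, miR-18a, miR-210 and miR-378, all of them lower at REST. Without cow 9615 and without the block, 2 of 22 passed in MONT, miR-100 and miR-130a, beside 12.8% of all miRNAs. Over both breeds 5 of 22 passed there beside 32.2%, with miR-100, miR-130a, miR-155 and miR-16b higher at REST and miR-18a lower.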

How the data were processed

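Total RNA of 22 mammary biopsies was made into TruSeq small RNA libraries. The authors demultiplexed reads with bcl2fastq 2.17.1.14, removed adapters, kept reads by size, quantified them with ncPRO-seq and used miRDeep2 with miRBase 22.1. The deposited counts are whole numbers per miRNA without normalization. How reads shared by similar miRNAs were counted is not given in the sources used here. The tables' normalized columns, means, fold changes and p-values by the authors were not used.

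Libraries were grouped by the labels' breed and period, and replicates are cows. Normalized counts are raw counts over DESeq2 1.42.0 size factors. Tests were made with edgeR 4.0.16 (R 4.3.3): TMM, filterByExpr with a minimum count of 10, quasi-likelihood F test, Benjamini-Hochberg adjustment over all miRNAs and a threshold of 0.05, within each breed, and in 1 fit of the 4 groups over 22 libraries for the interaction, both breeds together and breed differences. Permutation tests of single values were two-sided. The correlations over 11 and 10 cows used 100000 resamples, and that over 9 cows was exact. Counting intervals (95%) cover counting error only. The same number marks the same cow in the labels. Deviations of its libraries from the group means correlated at r from 0.11 to 0.70 in 10 cows and at -0.20 in cow 9615. As no block appears in the study's methods, it was an alternative. Scripts were tested on simulated data. Named besides the members are the 5 miRNAs most like each, members of fixed lists past the threshold and neighbouring pairs. Members, lists and pairs were chosen with earlier results of these data known. Alternatives were DESeq2, its size factors in edgeR, library totals, no filter, the cow block, 1 fit for all libraries, a pseudocount of 0.5 for the ratio, and each cow left out. Fits with the block and without cow 9615, breed-centred correlations and marker lists without this cow were added after seeing the data.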

Additional observations from a re-analysis of the deposited data

Results flagged for a closer look

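A set of 3 values of cow MONT 9615 lay farther from the other cows of the group than Dixon's 95% limit allows, out of 18 groups of values examined, where about 1 in 20 groups is flagged by chance. The normalized count of miR-221 in its CONT library was 5045, while the other 5 MONT CONT libraries lay between 1564 and 2601. Its log2 change of miR-221 from CONT to REST was -1.04, with 0.44 to 1.10 in the other MONT cows. Its log2 change of miR-222 was -0.69, with 0.80 to 1.46 in the others. All 3 values rest on the same pair of libraries and are not independent of each other.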

How the results depend on the processing

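Of 353 values recomputed under alternatives, 258 kept their direction and their side of the threshold or stayed within 1.5 times the main count, 25 lost a call, 13 gained one, 57 counts moved and 0 reversed. The 248 values of the members (fits, ratio and correlation) kept their direction. The causes of the changes were not tested. miR-222 in HOLS gained a call with DESeq2 (0.47, adjusted p = 0.00283) and with the cow as a block (0.48, adjusted p = 0.0216). Over both breeds miR-222 lost it with library totals (0.52, adjusted p = 0.0738) and with no filter (0.58, adjusted p = 0.0809), and at REST between the breeds with no filter (0.71, adjusted p = 0.0868). The block changed no other member's call. The block without cow 9615, chosen after seeing the data, gave miR-221 0.79 and miR-222 1.02 in MONT, 0.63 and 0.61 for the interaction, and miR-221 0.51 over both breeds. The correlation of the changes with breed means removed and without cow 9615, also chosen after seeing the data, was 0.45 (permutation p = 0.313). Taken without pairing, the fall of the log2 ratio had an exact permutation p of 0.0238 in HOLS (-0.25) and 0.0476 in MONT (-0.25).

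With each cow left out in turn, the log2 fold change of miR-221 at REST against CONT lay between 0.15 and 0.25 in HOLS, 0.25 and 0.80 in MONT, and 0.24 and 0.52 over both breeds. That of miR-222 lay between 0.40 and 0.49 in HOLS, 0.56 and 1.03 in MONT, and 0.54 and 0.76 over both breeds. For the interaction it lay between 0.09 and 0.64 for miR-221 and 0.15 and 0.62 for miR-222. For MONT against HOLS at REST it lay between 0.75 and 0.96 for miR-221 and 0.61 and 0.87 for miR-222. The ratio of MONT minus HOLS at REST ranged from 0.059 to 0.17, with an exact permutation p of 0.0286 without cow 9195.

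The count of miRNAs passing in HOLS was 9, and was 26 with DESeq2, 20 with library totals, 5 with no filter, 61 with the cow block and 5 in 1 fit for all libraries. It was 0 in MONT and for the interaction, and 140 and 23 with the block and without cow 9615. Over both breeds 8 were higher and 24 lower at REST, and these numbers were 16 and 32 with DESeq2, 0 and 27 with library totals, 1 and 13 with no filter, and 92 and 92 with the block and without cow 9615. For MONT against HOLS in CONT it was 29, and 3 both with library totals and with no filter, and in REST 53, and 85 with DESeq2. With each cow left out the counts ranged from 3 to 14 in HOLS, 0 to 46 in MONT and, over both breeds, 0 to 60 higher and 7 to 65 lower, with the highest MONT and both-breed counts without cow 9615, and from 0 to 31 in CONT and 16 to 101 in REST for MONT against HOLS. The lowest count of miR-222 in a library was 142, which sets the depth behind its smallest values.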
